A study of Mus musculus with 7 samples.

Results

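Histone genes were followed in total RNA of the mouse mesenchymal line C3H10T1/2, exposed to purmorphamine, a small-molecule agonist of Smo, or to vehicle. Genes were chosen by name: those of the histone clusters (symbols beginning Hist1h to Hist4h) and, as replacement variants, H1f0, H3f3a, H3f3b and the H2af genes j, v, x, y and z. The rule found 46 of the 18468 genes in the table of counts, of which 36 were cluster genes and 10 were replacement variants. All cells were serum-starved for 12 h, and remained without serum during an exposure of 48 h to 2 μM purmorphamine (n = 4 libraries, numbered 5 to 8) or 0.02% DMSO (n = 3 libraries, numbered 2 to 4). No library carried an introduced gene. RNA was depleted of ribosomal RNA rather than selected for poly(A) tails, so that transcripts without such a tail could enter the libraries. Values are sense-strand reads per gene from the deposited table, in which libraries had been brought to nearly equal depth (14337225 to 14342154 reads). Where no read was found, up to 3 reads (0.209 CPM) are allowed by counting error alone. The labels do not say whether the libraries came from separate cultures, so that p-values measure only the spread between these libraries, which may be technical.

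Hedgehog targets responded in the libraries used. Gli1, a transcription factor of the pathway and its target, had a mean of 10.0 reads with DMSO and 2770 with purmorphamine, and Ptch1, the receptor that is also a target, had 521 and 10922.5. All 8 mesenchymal markers examined were detected, of which 3 rose and 2 fell. Pdgfra and Thy1 rose by 0.76 and 0.74 on the log2 scale (adjusted p = 3.92e-10 and 1.61e-08 from edgeR), whereas Vim fell (-0.96, adjusted p = 1.73e-11) and Col1a2 fell (-0.23, adjusted p = 0.000766). Of the markers of other cell types reported here, 5 had a row in the table, and their summed reads were 27 to 45 with DMSO and 144 to 169 with purmorphamine. Among these, Cdh1 (epithelial) rose from a mean of 18.7 to 126 reads, and Cdh5 (endothelial) was at 0 in every DMSO library and had 21 to 26 reads with purmorphamine, whereas Ptprc (blood) had no more than 1 read in any library. Pecam1, also endothelial, had 1 to 5 reads with DMSO and 3 to 5 with purmorphamine, and Adipoq (adipocyte) had 10 to 19 and 4 to 8, without overlap. The part of these markers in the histone results was not tested.

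Histones package DNA into nucleosomes, in which DNA winds around a core of H2A, H2B, H3 and H4, while the linker histone H1 binds outside the core. Most genes of the clusters are replication-dependent: they lack introns, are transcribed mainly in S phase, and give mRNAs that end in a conserved stem-loop in place of a poly(A) tail. The stem-loop is bound by SLBP, which serves in 3′ processing, translation and the decay that follows the end of DNA synthesis. Replacement variants such as H3.3 and H2A.Z are made through the cell cycle from polyadenylated mRNAs and are placed in chromatin by their own chaperones. Some cluster genes can also give polyadenylated mRNA that runs past the stem-loop, particularly in cells that have stopped dividing.

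The stem-loops of the genes on which the results turn are shown because they mark where a replication-dependent transcript ends. Sequences are from the mouse genome (GRCm38), 5′ to 3′ on the strand of the gene. Capitals mark the match to the 16-base string searched on the sense strand of transcripts, which begins with GG, has CTTTT from position 5 and AG from position 11, ends with CC, and takes any base elsewhere. Lower case marks 5 bases on either side. They lie at chr13:23739512-23739527 (Hist1h1c, plus strand), chr11:58955172-58955187 (Hist3h2a, plus), chr3:96238485-96238500 (Hist2h3c2, minus), chr3:96262939-96262954 (Hist2h4, minus), chr13:23683477-23683492 (Hist1h2ac, minus), chr13:22040966-22040981 (Hist1h4i, minus) and chr9:44335240-44335255 (H2afx, plus).
Hist1h1c: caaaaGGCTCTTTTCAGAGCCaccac
Hist3h2a: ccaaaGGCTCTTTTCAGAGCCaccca
Hist2h3c2: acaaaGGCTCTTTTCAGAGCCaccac
Hist2h4: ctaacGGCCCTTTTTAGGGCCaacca
Hist1h2ac: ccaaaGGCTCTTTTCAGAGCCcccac
Hist1h4i: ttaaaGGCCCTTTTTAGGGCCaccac
H2afx: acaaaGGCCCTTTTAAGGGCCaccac

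The string was present in the transcripts of 28 of the 46 histone genes, against 89 of 55450 genes (0.161%) in the GENCODE M21 annotation. H2afx was a replacement variant by the rule used here but carried the string, whereas the annotated transcripts of the cluster genes Hist1h2bc and Hist2h2be did not.

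Few cluster genes were measured well. Of the 36, 25 were below the filter on low counts, at 15 reads or fewer in each library and 254 reads among them over all 7. The best covered were Hist1h2bg (H2B) with 56 reads in all, Hist1h4i (H4) with 48, Hist1h1e (H1) with 44, and Hist1h2ad and Hist1h2ai (H2A) with 20 each. The other 20 had 1 to 11 reads in all and never above 3 in a library: Hist1h1b and Hist1h1t for H1, Hist1h2ab, Hist1h2ae and Hist2h2ab for H2A, Hist1h2bb, Hist1h2bf, Hist1h2bh, Hist1h2bk, Hist1h2bm, Hist1h2bp and Hist3h2bb-ps for H2B, Hist1h3b, Hist1h3c, Hist1h3e, Hist1h3f, Hist1h3g and Hist2h3c1 for H3, and Hist1h4a and Hist1h4h for H4. Of these, 6 had a single read. The row named Hist2h3c1 carries the identifier of Gm20634 in GENCODE M21 and is uncertain. Summed over the 25 genes, there were 50, 31 and 29 reads in DMSO libraries 2, 3 and 4, and 31, 40, 37 and 36 in purmorphamine libraries 5, 6, 7 and 8, so that the groups overlapped. Genes below the filter were singled out after their values were seen. Hist1h4i, which encodes H4, had 10, 7 and 4 reads with DMSO and 9, 8, 2 and 8 with purmorphamine. Hist1h1b, which encodes a linker histone, had 1, 0 and 0 reads with DMSO and 0, 1, 2 and 2 with purmorphamine. A difference between the groups was not detectable for these genes at this depth. A further 34 Hist genes of GENCODE M21 had no row under their name and were not analysed here.

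The cluster genes with enough reads to test differed from the rest in their annotated transcripts. Of the 10 tested genes that GENCODE M21 lists under the same name, 8 contained the stem-loop string, followed by 377 to 4884 bases of annotated transcript (median 1450), and more than 700 bases in 7. Of the 24 such genes that were not tested, 18 contained it, followed by 11 to 1214 bases (median 62.5), and more than 700 bases in 2, Hist1h1e and Hist1h2bh. The untested row named Hist2h3c1, which GENCODE M21 lists as Gm20634, is outside these counts. It contained the string, followed by 2462 bases, and had 2 reads in all. Hist1h1c had 840 such bases and Hist3h2a had 1643. Among the genes not tested, Hist1h1e had 1153 bases, and 15, 3 and 2 reads with DMSO and 7, 8, 5 and 4 with purmorphamine. These lengths are not always those of the gene models counted, whose spans matched GENCODE M21 for 21 of the 46 histone genes. The span counted was shorter than the bases after the stem-loop for Hist1h1e (1148), Hist1h2bh (836, against 1214) and Hist1h1d (4221, against 4884). The contrast between tested and untested genes therefore holds for annotated transcripts only, and a longer model can collect more reads. The sources used here do not say how reads that match several near-identical genes were counted. Of all 100-base stretches of a tested gene, 38.4% to 100% (median 89.9%) occurred at no other annotated gene, against 11.6% to 100% (median 67.7%) for those not tested. Hist1h1b was unique at 100% of its stretches and had no more than 2 reads in any library. The part of shared sequence and of transcript length in the low counts was not tested.

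**Figure D1:**
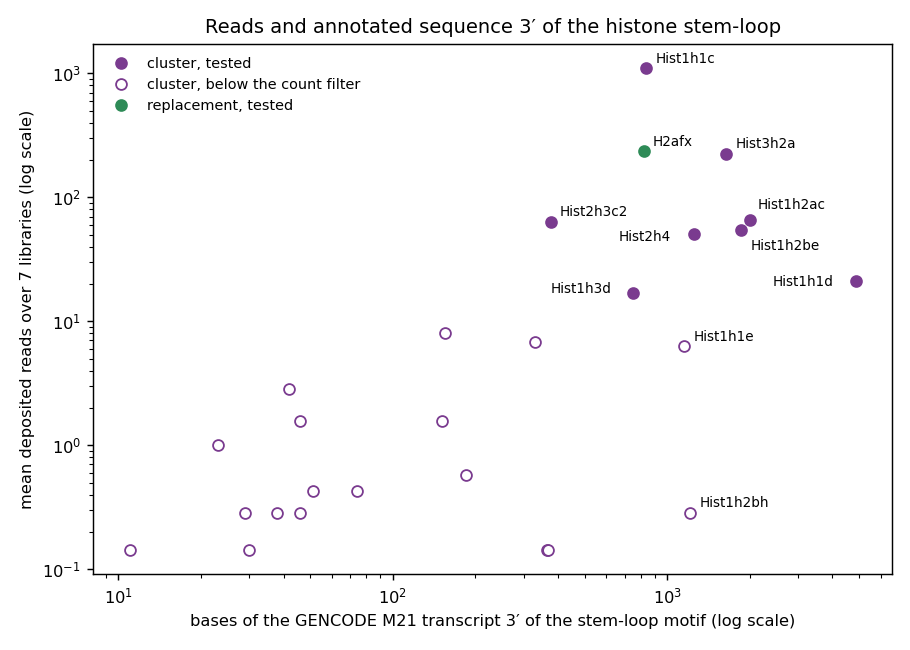
Mean deposited reads over the 7 libraries against the bases of annotated transcript 3′ of the stem-loop string (vertical and horizontal axes, log scales). Each point is a histone gene that contains the string and that GENCODE M21 lists under the same name. Hist2h3c1, listed there as Gm20634, is therefore not drawn. Filled points are genes tested and open points are genes below the count filter. Tested cluster genes had 377 to 4884 bases after the stem-loop, and most genes below the filter had fewer. Bases are those of GENCODE M21 and exceed the span counted for Hist1h1d, Hist1h1e and Hist1h2bh.

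With 48 h of purmorphamine, cluster genes moved in both directions. Of the 11 tested, 5 fell and 3 rose at an adjusted p under 0.2, the study's threshold, in edgeR's quasi-likelihood test adjusted by Benjamini-Hochberg over all 12388 genes tested. The median log2 fold change of the 11 was -0.24, against 0.0038 over all genes tested. That median was the value of Hist1h2ac, and the next value above it was 0.20, for Hist1h3d. The row named Hist2h2bb, which is uncertain as a histone gene, was among the 5 that fell. Without it, the median lies midway between the values of Hist1h2ac and Hist1h3d, so that it depends on this row. By the same rule 31.4% of all genes tested rose, 31.1% fell and 62.5% did either, so that the share of cluster genes called was close to that of genes at large. The deposited counts of the groups did not overlap for 5 cluster genes, 2 higher and 3 lower with purmorphamine, whereas 49.5% of all genes tested showed no overlap (29.1% higher and 20.4% lower). In RNA from whole cultures, fewer cells expressing a gene and less of its RNA per cell cannot be told apart.

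The linker histone gene Hist1h1c, which encodes H1.2, was the most abundant cluster gene. It is at chr13:23738808-23740367 (plus strand) in GRCm38. It had 1277, 1247 and 1353 reads in the DMSO libraries and 1025, 998, 879 and 937 in the purmorphamine libraries. Every purmorphamine library lay below every DMSO library. The means were 1292 ± 54.6 (SD, n = 3) and 960 ± 65.2 (SD, n = 4), a ratio of 0.743 and a log2 fold change of -0.48 (SE 0.0571, adjusted p = 2.83e-06 from edgeR). With all 35 ways to assign the libraries, the exact permutation test gave p = 0.0286 (two-sided), the smallest this design allows. Hist1h1d, which encodes H1.3, had 29, 16 and 29 reads with DMSO and 14, 23, 19 and 18 with purmorphamine, so that the groups overlapped. Its log2 fold change was -0.46 (SE 0.262, adjusted p = 0.164 from edgeR). Several settings ended this call, among them limma-voom, the study's own test (adjusted p = 0.216), and leaving out DMSO library 2 (0.437), DMSO library 4 (0.441), purmorphamine library 5 (0.34) or purmorphamine library 8 (0.232).

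Genes of the core histone H2B followed no common direction. Hist1h2bc (chr13:23684199-23692908, plus strand) had 718, 669 and 651 reads with DMSO and 526, 468, 558 and 516 with purmorphamine. The groups did not overlap, and the gene fell by 0.44 on the log2 scale (SE 0.0679, adjusted p = 4.45e-05 from edgeR), from 679 ± 34.7 (SD, n = 3) to 517 ± 37.3 reads (SD, n = 4). Hist1h2be (chr13:23583670-23621124, minus strand) had 46, 45 and 50 reads with DMSO and 58, 50, 68 and 66 with purmorphamine. The groups met at 50 reads, and the log2 fold change was 0.32 (SE 0.16, adjusted p = 0.117 from edgeR). Leaving out DMSO library 2 (adjusted p = 0.225), DMSO library 3 (0.251), purmorphamine library 7 (0.227) or purmorphamine library 8 (0.213) ended this call, as did DESeq2 (0.238). The span counted for Hist1h2be shares 2099 bases with Gm11398 on the same strand, so that reads there cannot be assigned to either gene with certainty. Gm11398 had a mean of 63.0 reads over the libraries, above the 54.7 of Hist1h2be. Hist2h2be had 48, 38 and 36 reads with DMSO and 63, 42, 44 and 47 with purmorphamine, and did not pass the test (log2 fold change 0.22, SE 0.189, adjusted p = 0.359 from edgeR). The row named Hist2h2bb carries the identifier of Gm42743, a long non-coding RNA in GENCODE M21, and is uncertain as a histone gene. It had 30, 43 and 23 reads with DMSO and 28, 23, 22 and 25 with purmorphamine, with a log2 fold change of -0.43 (SE 0.229, adjusted p = 0.137 from edgeR). The groups overlapped, and leaving out DMSO library 3 reduced the change to -0.16 (adjusted p = 0.631), while leaving out purmorphamine library 6 (0.207) or 7 (0.225), or using DESeq2 (0.255), also ended the call.

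Of the cluster genes for H2A, Hist3h2a (chr11:58954685-58956830, plus strand) was the most abundant and rose. It had 199, 204 and 183 reads with DMSO and 245, 228, 274 and 245 with purmorphamine. All purmorphamine libraries lay above all DMSO libraries, with means of 195 ± 11.0 (SD, n = 3) and 248 ± 19.1 (SD, n = 4) and a log2 fold change of 0.30 (SE 0.0908, adjusted p = 0.0129 from edgeR). Trim17, which overlaps the whole span counted for Hist3h2a (1990 bases) on the same strand, had a mean of 15.1 reads. Reads there cannot be assigned to either gene with certainty. Hist1h2ac had 64, 82 and 67 reads with DMSO and 60, 53, 82 and 54 with purmorphamine. The groups overlapped and the gene did not pass the test (log2 fold change -0.24, SE 0.17, adjusted p = 0.273 from edgeR), although without purmorphamine library 7 the change was -0.39 with an adjusted p of 0.0489.

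Among genes for H3, Hist2h3c2 (chr3:96238108-96239127, minus strand) had 74, 67 and 80 reads with DMSO and 62, 55, 48 and 58 with purmorphamine. The groups did not overlap, and the log2 fold change was -0.45 (SE 0.143, adjusted p = 0.0167 from edgeR). Only 38.4% of its 100-base stretches were unique, so that its reads may be shared with near-identical H3 genes. Hist1h3d had 15, 20 and 11 reads with DMSO and 16, 17, 20 and 20 with purmorphamine, and did not pass the test (log2 fold change 0.20, SE 0.264, adjusted p = 0.561 from edgeR). The H4 gene Hist2h4 (chr3:96261682-96263311, minus strand) had 34, 42 and 39 reads with DMSO and 49, 55, 75 and 63 with purmorphamine. It rose in every purmorphamine library relative to every DMSO library, and its log2 fold change of 0.61 (SE 0.182, adjusted p = 0.0112 from edgeR) was the largest in size among the 20 histone genes tested. In the exact permutation test, which uses TMM-scaled counts, Hist2h4 had p = 0.0571, above the smallest possible, whereas Hist1h2bc, Hist2h3c2 and Hist3h2a had p = 0.0286.

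**Figure D2:**
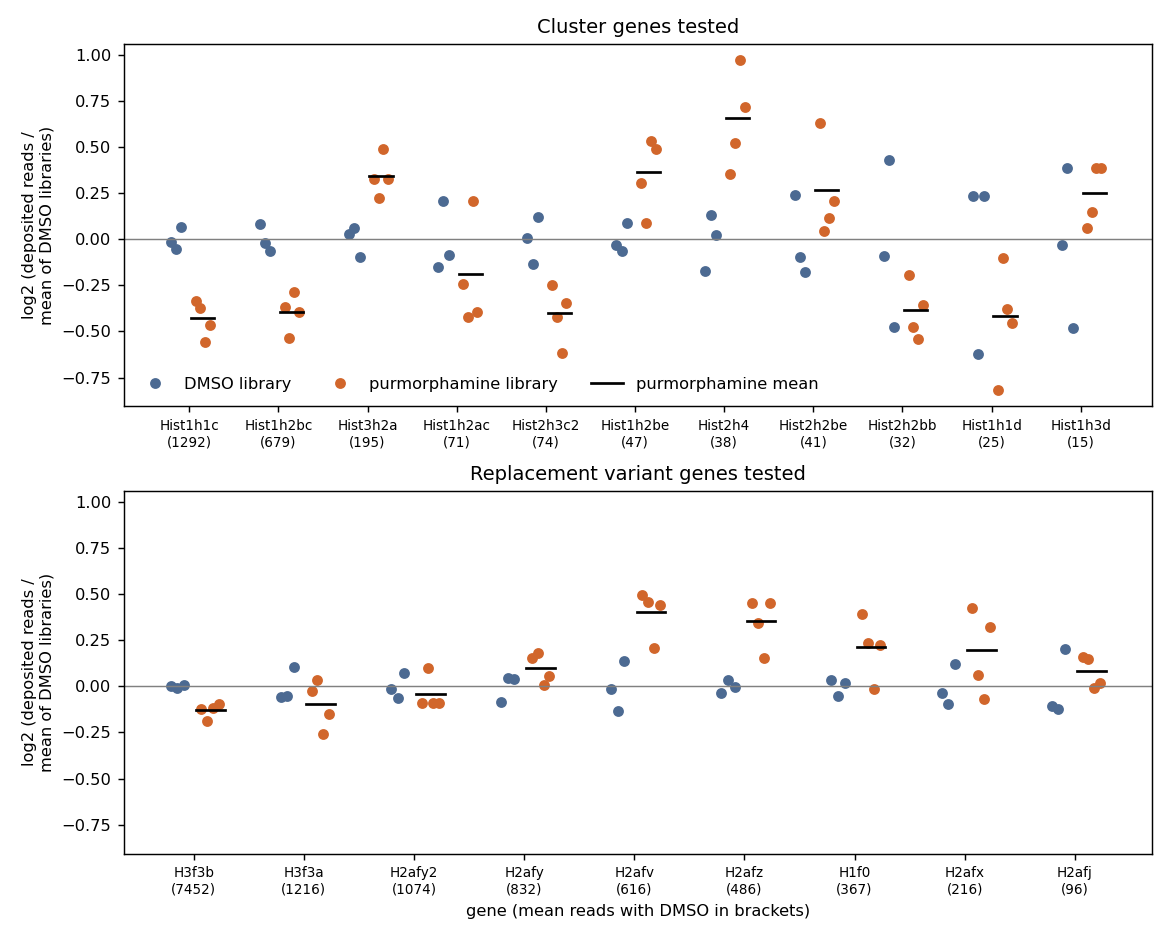
Log2 of deposited reads over the mean of the DMSO libraries (vertical axes) for the histone genes tested, 1 point per library, with cluster genes above and replacement variants below. Blue points are DMSO libraries, orange points are purmorphamine libraries, bars are the log2 of the purmorphamine mean over the DMSO mean, and brackets give mean reads with DMSO. The 4 purmorphamine libraries lie below the 3 DMSO libraries for Hist1h1c, Hist1h2bc, Hist2h3c2 and H3f3b, and above them for Hist3h2a, Hist2h4, H2afz and H2afv.

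Hist1h2ac and Hist1h2bc start 251 bases apart on opposite strands, so that 1 promoter region lies between them. Their changes were -0.24 and -0.44 on the log2 scale, of which only the second passed the test, and the difference between them was not tested. Promoters of 3 genes are shown, as the 250 bases before and 50 bases after the start in RefSeq (GRCm38.p6), 5′ to 3′ on the strand of the gene: Hist1h1c, which fell, Hist3h2a, which rose, and Hist1h2ac, whose promoter lies against that of Hist1h2bc. They are at chr13:23738557-23738856 (plus strand), chr11:58954435-58954734 (plus) and chr13:23683910-23684209 (minus). Capitals mark 3 motifs searched on either strand. The first is CCAAT. The next, a form of the TATA box, is TATAAA. The last, the octamer, is ATTTGCAT and can share bases with CCAAT, which it does in none of these 3 promoters.
Hist1h1c promoter: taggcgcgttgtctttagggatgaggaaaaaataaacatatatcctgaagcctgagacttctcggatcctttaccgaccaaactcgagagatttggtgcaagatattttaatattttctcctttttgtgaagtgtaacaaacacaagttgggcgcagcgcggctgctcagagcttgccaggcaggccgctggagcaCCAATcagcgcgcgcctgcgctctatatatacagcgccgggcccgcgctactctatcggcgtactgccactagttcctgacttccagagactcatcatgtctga
Hist3h2a promoter: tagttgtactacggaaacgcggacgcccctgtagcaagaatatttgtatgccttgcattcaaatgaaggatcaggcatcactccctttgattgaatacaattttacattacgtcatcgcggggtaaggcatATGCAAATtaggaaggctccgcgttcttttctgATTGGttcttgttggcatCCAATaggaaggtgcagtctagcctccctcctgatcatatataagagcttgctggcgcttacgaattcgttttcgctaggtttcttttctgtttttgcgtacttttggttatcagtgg
Hist1h2ac promoter: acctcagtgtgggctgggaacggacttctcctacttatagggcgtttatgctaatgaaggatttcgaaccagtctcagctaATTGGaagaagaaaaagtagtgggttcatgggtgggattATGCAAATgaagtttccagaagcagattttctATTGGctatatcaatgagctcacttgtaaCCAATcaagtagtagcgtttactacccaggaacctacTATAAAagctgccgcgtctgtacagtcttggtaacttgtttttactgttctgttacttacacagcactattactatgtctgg

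RefSeq promoters were matched for 39 of the 46 genes. Histone genes were counted where any promoter of the gene held the motif, whereas the shares for comparison are of single promoters. CCAAT, the letters bound by NF-Y, was found for 29 of 31 cluster genes and 6 of 8 replacement variants. It was in 37.4% of all 32851 promoters of the same length. TATAAA was found for 17 cluster genes and 1 replacement variant (13.6% of all promoters). The octamer, which is bound by Oct1, was found for 10 cluster genes and 1 replacement variant (1.74% of all promoters). A CCAAT was present in the promoter of Hist1h1c as well as in that of Hist3h2a, which moved in the other direction. These matches describe the letters only.

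Replacement variants were measured more deeply, with 9 of 10 genes tested. Of these, 3 rose, 2 fell and 4 were not called, with a median log2 fold change of 0.053. The groups did not overlap for 3 of them, 2 higher and 1 lower with purmorphamine. These shares may be read against the 31.4%, 31.1% and 49.5% of all genes given above. The remaining gene, H2afy3, had 1 read in each of 2 DMSO libraries and none elsewhere, and is a pseudogene in GENCODE M21.

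Both genes of H2A.Z, a variant found at promoters, rose. H2afv, which encodes H2A.Z.2 (chr11:6427229-6444443, minus strand), had 610, 561 and 676 reads with DMSO and 866, 846, 711 and 835 with purmorphamine. Its groups did not overlap, and the log2 fold change was 0.36 (SE 0.0753, adjusted p = 0.00091 from edgeR). H2afz, which encodes H2A.Z.1 (chr3:137864487-137866922, plus strand), had 474, 498 and 485 reads with DMSO and 664, 617, 541 and 664 with purmorphamine. Again all purmorphamine libraries were higher, with a log2 fold change of 0.31 (SE 0.072, adjusted p = 0.00203 from edgeR). The exact permutation test gave p = 0.0571 for each gene, and purmorphamine library 7 was the lowest of its group for both. Together the genes had 1101 ± 53.2 reads (SD, n = 3) with DMSO and 1436 ± 126 (SD, n = 4) with purmorphamine, a ratio of 1.3.

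The genes for H3.3, which is deposited outside of replication, were lower. H3f3b (chr11:116021912-116027962, minus strand), the most abundant histone gene, had 7455, 7416 and 7486 reads with DMSO and 6853, 6548, 6857 and 6976 with purmorphamine. The groups did not overlap, and the change was small, with a ratio of 0.914 and a log2 fold change of -0.18 (SE 0.0434, adjusted p = 0.00293 from edgeR). H3f3a (chr1:180800832-180813943, minus strand), which encodes the same protein, had 1169, 1172 and 1307 reads with DMSO and 1196, 1246, 1016 and 1097 with purmorphamine. Its groups overlapped, and the log2 fold change was -0.14 (SE 0.0658, adjusted p = 0.0875 from edgeR). This call was lost without DMSO library 4 (adjusted p = 0.406), without purmorphamine library 7 (0.244), and with library totals as the only scaling (0.264). H3f3b held 84.0% to 87.1% of the H3.3 reads over the 7 libraries.

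H1f0, the replacement linker histone found in cells that have ceased to divide, had 376, 354 and 371 reads with DMSO and 481, 432, 363 and 428 with purmorphamine. Purmorphamine library 7 lay within the range of the DMSO libraries. The log2 fold change was 0.17 (SE 0.084, adjusted p = 0.114 from edgeR), and the call was lost without DMSO library 3 (0.288) or purmorphamine library 5 (0.3). H2afx, whose product is phosphorylated at DNA breaks, had 211, 202 and 235 reads with DMSO and 290, 225, 206 and 270 with purmorphamine. Its groups overlapped, and it did not pass the test (log2 fold change 0.15, SE 0.112, adjusted p = 0.289 from edgeR), but did so without DMSO library 4 (0.189), purmorphamine library 6 (0.14) or purmorphamine library 7 (0.0772), and with library totals alone (0.166).

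Genes for macroH2A, a variant with a large additional domain that is linked to silent chromatin, did not pass the test. H2afy, which encodes macroH2A1, had 783, 857 and 855 reads with DMSO and 925, 943, 835 and 863 with purmorphamine, with a log2 fold change of 0.05 (adjusted p = 0.483 from edgeR; 0.176 with library totals alone). H2afy2, which encodes macroH2A2, had 1063, 1030 and 1130 reads with DMSO and 1009, 1150, 1008 and 1008 with purmorphamine, with a log2 fold change of -0.09 (adjusted p = 0.226 from edgeR). Purmorphamine library 6 stood apart, and without it the change was -0.13 with an adjusted p of 0.0466, while without DMSO library 3 the adjusted p was 0.168. H2afj, which encodes H2A.J, had 88 to 110 reads with DMSO and 95 to 107 with purmorphamine, and did not pass the test (adjusted p = 0.845 from edgeR).

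**Figure D3:**
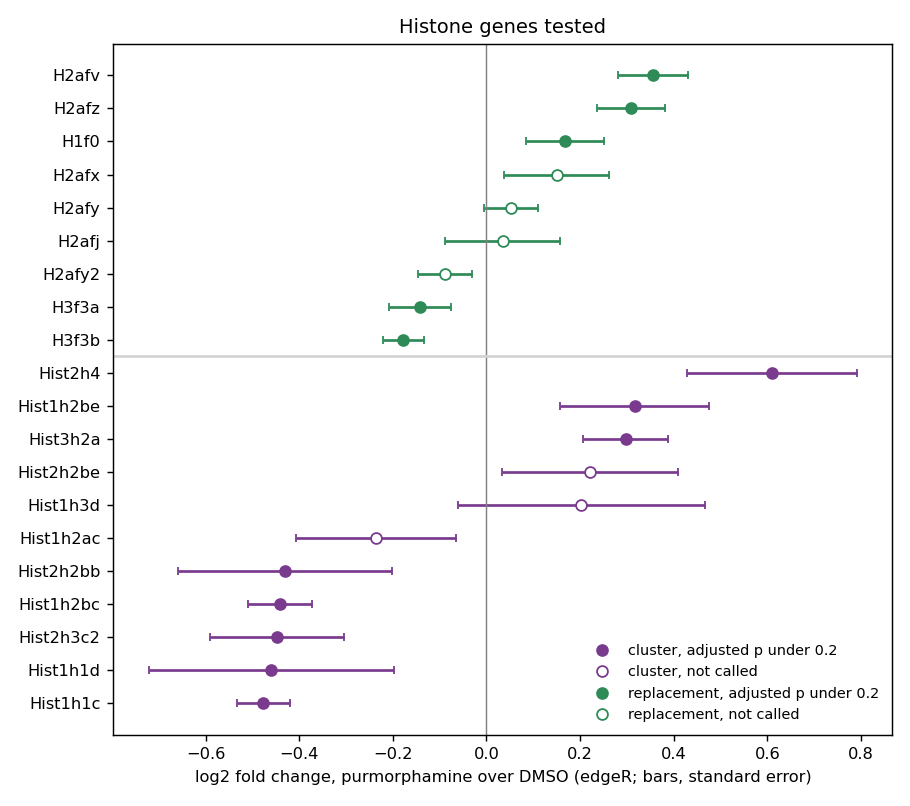
Log2 fold change of purmorphamine over DMSO from edgeR, with its SE, for the 20 histone genes tested (11 cluster genes and 9 replacement variants). Filled points passed an adjusted p under 0.2 and open points did not. Changes run from -0.48 for Hist1h1c to 0.61 for Hist2h4.

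The summed reads of a class were set by its most abundant genes. All 36 cluster genes together had 2584, 2504 and 2551 reads with DMSO and 2177, 2052, 2126 and 2085 with purmorphamine, or 0.0143% to 0.018% of a library. The groups did not overlap, and the ratio of the means was 0.83 ± 0.0249 (SD, from the SDs of both groups). Hist1h1c and Hist1h2bc made up 76.5% to 78.6% of the cluster reads with DMSO and 67.6% to 71.4% with purmorphamine. Without these genes, the sums were 589, 588 and 547 with DMSO and 626, 586, 689 and 632 with purmorphamine, a ratio of 1.1, and the groups overlapped. No test was made of these sums.

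By family, the ratio of summed cluster reads was 0.744 for H1, 0.819 for H2B and 0.841 for H3, with no overlap of the groups. Without the most abundant gene of the family, the ratio was 1.12 for H2B and 1.21 for H3. The H1 genes other than Hist1h1c were still lower in mean with purmorphamine, but on few reads and with overlap. With all genes included, the H4 ratio was 1.48, without overlap, on 44 to 50 reads with DMSO and 60 to 77 with purmorphamine. Without Hist2h4, the H4 ratio was 1.05. For H2A the ratio was 1.15 and the groups overlapped, and without Hist3h2a it was 0.853. The 10 replacement variants had 12231, 12178 and 12656 reads with DMSO and 12391, 12113, 11632 and 12238 with purmorphamine, a ratio of 0.979 with overlap. Cluster genes held 16.8% to 17.4% of all histone reads with DMSO and 14.5% to 15.5% with purmorphamine.

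**Figure D4:**
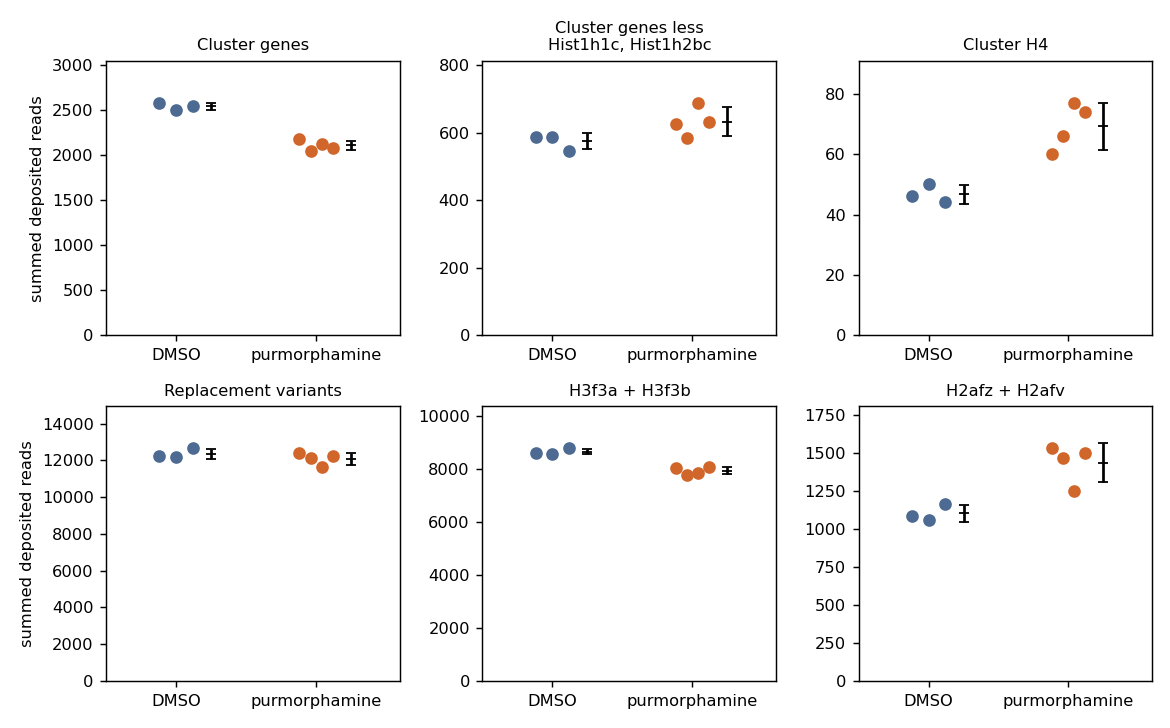
Summed deposited reads per library (vertical axes, reads, from 0) for sets of histone genes, 1 point per library with the mean ± SD of each group. The cluster total was lower in the 4 purmorphamine libraries, whereas the cluster without Hist1h1c and Hist1h2bc and the replacement variants overlapped between the groups.

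To compare levels between genes, reads were divided by exon length for the 21 genes whose counted span matched GENCODE M21 and are given as reads per kilobase of exon, scaled to CPM. H3f3b stood highest at 175 ± 0.821 (SD, n = 3) with DMSO and 160 ± 4.28 (SD, n = 4) with purmorphamine. Hist1h1c was next at 57.8 ± 2.44 and 42.9 ± 2.92, followed by H3f3a at 24.2 ± 1.57 and 22.7 ± 2.04. H2afz reached 19.1 ± 0.472 with DMSO and 24.4 ± 2.28 with purmorphamine, so that its level was below that of H3f3a with DMSO and overlapped it with purmorphamine. Hist1h2ac was at 1.99 ± 0.271 with DMSO, and Hist1h1b at 0.0313. Hist1h3b, Hist1h4a, Hist1h2bp and Hist1h3e had no read with DMSO.

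Genes that make, process or handle histones were examined as lists, which were chosen with earlier results of these data known. Of 15 genes for 3′ processing and decay of histone mRNA, 7 rose and 3 fell (median log2 fold change 0.09, against 0.0038 over all genes). The shares of all genes tested were 31.4% higher and 31.1% lower, here and for each list that follows, and no list was tested against them. Slbp, which encodes the stem-loop binding protein, rose by 0.20 on the log2 scale (SE 0.0629, adjusted p = 0.0137 from edgeR), from a mean of 646 to 769 reads. Of the U7 snRNP proteins, which direct cleavage after the stem-loop, Lsm10 rose (0.53, adjusted p = 0.000199 from edgeR) and Lsm11 fell (-0.36, adjusted p = 0.0145). Eri1, an exonuclease that trims the stem-loop, rose by 0.28 (adjusted p = 0.00277 from edgeR), and Cstf2, a cleavage factor subunit, fell (-0.18, adjusted p = 0.03). Casp8ap2, a protein of the complex at histone genes, rose by 0.12 (adjusted p = 0.116), a call lost without DMSO library 4 (0.271) or purmorphamine library 7 (0.233) or 8 (0.244).

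Of 10 genes for transcription of histone genes, 6 rose and 2 fell (median 0.12), beside 31.4% and 31.1% of all genes. Npat, the coactivator at the histone clusters, rose by 0.13 on the log2 scale (adjusted p = 0.0384 from edgeR). Hinfp, a factor for H4 genes, rose by 0.49 (0.000808). Ccne2, a cyclin of the start of S phase, rose by 0.52 (0.00143), whereas Ccne1, a related cyclin, fell (-0.31, adjusted p = 0.148), as did Nfyc, a subunit of NF-Y (-0.17, adjusted p = 0.0917). Of the other NF-Y subunits, Nfya rose (0.11, adjusted p = 0.0919) and Nfyb was not called (0.07, adjusted p = 0.302). The call of Ccne1 was lost without DMSO library 2 (adjusted p = 0.338) or 3 (0.324), or purmorphamine library 5 (0.208), 6 (0.345) or 7 (0.306), and with library totals alone (0.228). That of Nfyc was lost without DMSO library 2 (0.262) or purmorphamine library 8 (0.239), and with library totals alone (0.23).

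Of 30 rows for histone chaperones, 10 were higher and 7 lower (median 0.04), beside 31.4% and 31.1% of all genes, so that the shares called were near or below those of genes at large. CAF-1 deposits newly made H3 and H4 behind the fork. Of its subunits, Chaf1b rose by 0.44 (adjusted p = 0.00116 from edgeR) and Chaf1a by 0.38 (0.00685). Rbbp4, a further subunit, fell without overlap of the groups (-0.20, adjusted p = 0.00133). Asf1b, which hands H3 and H4 to CAF-1, rose by 0.42 (0.00112). Set, which binds H1 and core histones, fell (-0.30, adjusted p = 0.0001). Of the H3.3 chaperones, Atrx fell (-0.27, adjusted p = 0.00162) and Hira fell (-0.11, adjusted p = 0.183), while Daxx was at 0.03 (adjusted p = 0.803). Ubn1, a partner of Hira, rose without overlap of the groups (0.28, adjusted p = 8.33e-05). Ubn2 (0.10, adjusted p = 0.263) and Cabin1 (0.09, adjusted p = 0.289) did not pass the test. The call of Hira was lost without DMSO library 2 (0.211) or 4 (0.552), or purmorphamine library 6 (0.261) or 7 (0.412), and with DESeq2 (0.299), no filter on low counts (0.281) or library totals alone (0.475).

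S-phase genes, which are active when replication-dependent histones are made, were mostly higher. Of 48 tested, 38 rose, 3 fell and 7 were not called, with a median log2 fold change of 0.33, beside 31.4% higher and 31.1% lower among all genes. Tk1, a thymidine kinase, rose by 0.72 (adjusted p = 2.39e-05 from edgeR) and Dna2, a nuclease of lagging-strand synthesis, by 0.73 (0.000399). Gins4, a subunit of the replicative helicase, fell (-0.23, adjusted p = 0.0273). The difference between this list and the cluster genes was not tested.

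**Figure D5:**
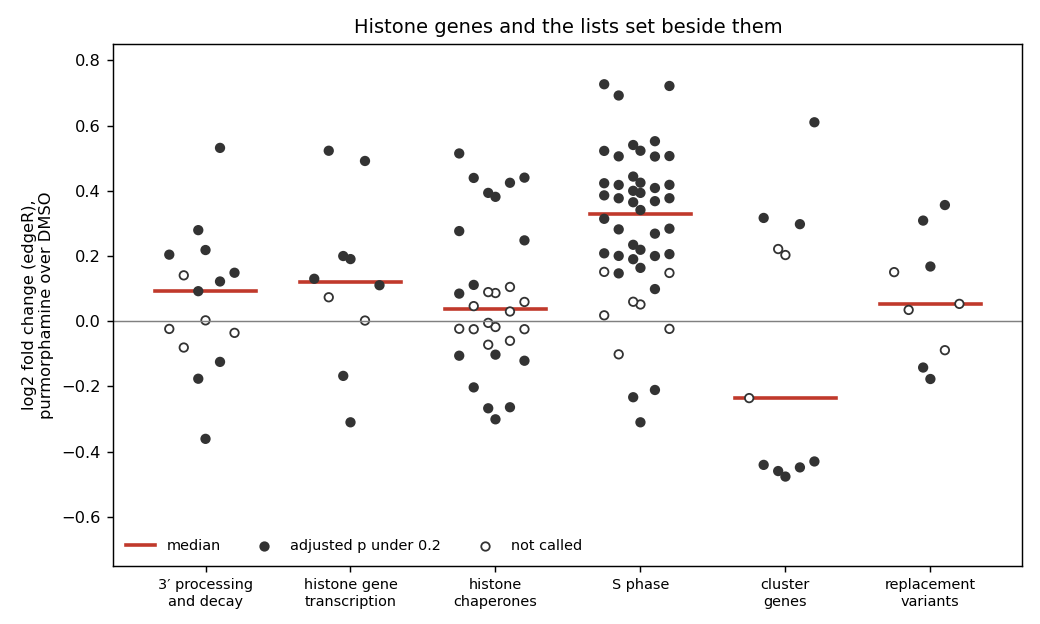
Log2 fold change of purmorphamine over DMSO from edgeR (vertical axis), 1 point per gene tested, for 4 lists of genes linked to histones and for the cluster genes and replacement variants. Filled points passed an adjusted p under 0.2 and bars are medians, which were 0.33 for S-phase genes and -0.24 for cluster genes. The cluster median includes the uncertain row Hist2h2bb, and without that row it lies midway between the values of Hist1h2ac and Hist1h3d.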

How the data were processed

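Total RNA of 3 DMSO and 4 purmorphamine libraries was sequenced as stranded, ribosomal-RNA-depleted libraries with single 100-base reads. The submitters' processing notes name STAR 2.5.3a and the build mm9, and the annotation is not given in the sources used here. The authors resampled the reads to equal numbers and deposited whole-number counts of sense-strand reads per gene, 14337225 to 14342154 per library, with no further normalization. All columns of samples were used.

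From these counts, edgeR 4.0.16 (R 4.3.3) was run with TMM factors, the default filter (minimum count 10, total 15, leaving 12388 of 18468 genes), and its quasi-likelihood test (purmorphamine over DMSO) with Benjamini-Hochberg adjustment and a threshold of 0.2. No covariate was used. Single genes were also compared by a two-sided exact permutation test over 35 assignments on log2 TMM-scaled counts with 1 added. Sums and ratios used the deposited counts and were not tested. On simulated counts with 12280 genes, 87.2% of 94 genes changed by 0.5 (log2) and 96.2% of 106 changed by 1 were recovered, and 20.3% of calls were false. A far smaller share of genes was changed there than the 62.5% called in these data, and smaller changes were not simulated. The rates may therefore not hold here.

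Table coordinates extended 200 bases beyond the gene on each side for 59.5% of the 17632 genes matched to GENCODE M21, so positions are from that annotation (GRCm38). Histone genes were matched by identifier (39) or symbol (7). Genes named were all replacement variants, every cluster gene past the filter and, of each list, the 2 largest increases and 2 largest decreases called, with a few named for their role (Slbp, Npat, Casp8ap2, Asf1b, Chaf1a, Hira, Daxx, Atrx, H1fx, Cenpa), and Gli1 and Ptch1. One gene of the marker list is not reported here. Members and lists were chosen with earlier results of these data known. Alternatives were RLE factors, library totals alone, DESeq2 1.42.0, limma-voom (limma 3.58.1), other filters, stricter thresholds, each library left out, and sums without the most abundant gene.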

Additional observations from a re-analysis of the deposited data

Results flagged for a closer look

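H2afy2, the macroH2A2 gene, had 1 purmorphamine library far from the others of its group. Its deposited reads were 1009, 1150, 1008 and 1008 in purmorphamine libraries 5, 6, 7 and 8. After TMM scaling, the gap between library 6 and its nearest neighbour was 0.926 of the range of the group, above Dixon's critical value for 4 samples. Of 53 genes examined in this way, chance gives about 2.65 and 1 was found.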

How the results depend on the processing

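Of the counts of calls under alternative settings, 175 stayed within 1.5 times the value reported or on its side, 34 were lower by more and 1 was higher by more. Requiring 1.5-fold as well left 1 cluster gene higher and 0 lower, 0 replacement variants in either direction, 0 genes of the processing, transcription and chaperone lists, 3 S-phase genes higher and 0 lower, and 977 higher and 936 lower of all genes. An adjusted p under 0.05 left 3 cluster genes, 1 replacement variant, 0 transcription genes, 3 chaperones and 1 S-phase gene lower, and 4 processing genes higher. With DESeq2, 3 cluster genes were lower. With library totals alone, which moved the median of all genes by 0.0475, 5 replacement variants were higher and 1 lower, and 0 transcription genes and 4 chaperones were lower. With each library left out, 1 to 3 replacement variants, 0 to 2 transcription genes and 4 to 7 chaperones were lower. The lowest values came without DMSO library 4 or purmorphamine library 7 (replacement variants), DMSO library 2 (transcription), and DMSO library 4 or purmorphamine library 6 (chaperones), and transcription was at 1 without any of the others except DMSO library 4. With each library left out, the log2 fold change ran from -0.026 to 0.153 for H2afj and from -0.0279 to 0.141 for Daxx (below 0 without DMSO library 2 or 3), and from -0.203 to 0.255 for H1fx (below 0 without DMSO library 2 or purmorphamine library 5). The ratio of summed cluster reads was 0.802 after TMM scaling and 0.917 without Hist1h1c. The ratio without the most abundant gene was 1.08 for replacement variants, 0.853 for cluster H2A, 1.12 for H2B and 1.21 for H3, each on the other side of 1. The cause was not tested. Hist1h1c, Hist1h2bc, Hist2h3c2, Hist3h2a, Hist2h4, H3f3b, H2afz and H2afv kept their call in all 14 settings examined other than the fold threshold. No paired analysis was possible because replicate numbers differ between DMSO and purmorphamine libraries. Depth limited the 25 cluster genes with 15 reads or fewer.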

Other observations

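Cenpa, which encodes the histone H3 variant of centromeres and lies outside the naming rule, had 271 ± 15.7 reads with DMSO (SD, n = 3) and rose to 464 ± 59.3 with purmorphamine (SD, n = 4). Its log2 fold change was 0.73 (adjusted p = 7.45e-06 from edgeR). Hjurp, its chaperone, rose by 0.51 on the log2 scale (adjusted p = 3.13e-07 from edgeR). H1fx, another linker histone gene outside the rule, did not pass the test (log2 fold change 0.03, adjusted p = 0.952 from edgeR).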
